A study of Homo sapiens with 4 samples.

Results

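The genes of the phagocyte NADPH oxidase and its close regulators, CYBB, CYBA, NCF1, NCF4, RAC1, RAC2 and HVCN1, were followed by symbol in the deposited gene counts, as 7 of 67062 rows. RNA came from OCI-AML3, an established human acute myeloid leukaemia line with a cytoplasmic NPM1 mutation (NPM1c+), in 2 groups of 2 libraries. PIG-LONA cells were transduced with a retroviral pMSCV-PIG vector that expresses the long noncoding RNA LONA from an RNA polymerase II promoter, and PIG-EMPTY cells with the vector lacking LONA. Both vectors carry puromycin resistance and GFP behind a PGK promoter, both groups were sorted for GFP, and each group holds 2 independent transductions of the same line. The series title names delayed myeloid differentiation as the subject, and the comparison asks here how far the oxidase genes, which mature phagocytes use, differ between the groups. All 7 genes had lower levels in PIG-LONA, at 0.810 (CYBB) to 0.949 (RAC2) times the PIG-EMPTY level, and 3 of them (CYBB, NCF1 and NCF4) passed the test. Of all tested genes, 49.6% had lower levels in PIG-LONA and 3.51% passed the test as lower.

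The phagocyte oxidase moves electrons from NADPH in the cytosol across a membrane to oxygen, which makes superoxide inside the phagosome. Its core, flavocytochrome b558, is a pair of membrane proteins, gp91phox (CYBB) and p22phox (CYBA). In a resting cell the organiser p47phox (NCF1) and p40phox (NCF4) wait in the cytosol with their partners, and they join the core with a RAC GTPase when the cell is stimulated. The proton channel HVCN1 carries out the protons that would otherwise stop electron flow. Inherited loss of CYBB, CYBA, NCF1 or NCF4 causes chronic granulomatous disease, and the genes are switched on as myeloid cells mature.

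Total counts were 30181550 and 38358442 in the PIG-LONA libraries and 29819572 and 32350832 in the PIG-EMPTY libraries. Levels are given as CPM, which are counts divided by the library total after TMM scaling. Floors from counts cover counting error only, while values after ± are SDs over libraries or standard errors of the fit. All 10 myeloid markers looked at were counted, among them CD33, CSF3R and ELANE, with a summed level of 1823 to 1911 CPM in PIG-LONA and 1796 to 1841 CPM in PIG-EMPTY. MPO, a defining myeloid gene, was low at 2.44 ± 0.48 CPM in PIG-LONA and 2.69 ± 0.14 CPM in PIG-EMPTY (mean ± SD, n = 2 each). Of 14 markers of other cell types, 5 (CD3E, CD3D, MS4A1, HBB and EPCAM) were at 0 in every library. The sum of all 14 was 275.5 to 291.5 CPM in PIG-LONA and 277.1 to 277.7 CPM in PIG-EMPTY, nearly all of it NCAM1 and PECAM1. Without that pair the sum lay between 3.02 and 3.76 CPM over the libraries.

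CYBB (ENSG00000165168, chromosome X, 37780011 to 37813461, plus strand, GRCh38) encodes the catalytic subunit, which holds the flavin and both haems. It had 14082 and 19305 counts in the PIG-LONA libraries, against 17660 and 19735 counts in the PIG-EMPTY libraries. Scaled to library size, these were 471 and 502 CPM in PIG-LONA and 593 and 608 CPM in PIG-EMPTY. Both PIG-LONA libraries lay below both PIG-EMPTY libraries, and the gap between the groups was larger than the spread inside either. The PIG-LONA level was 0.810 times the PIG-EMPTY level, a log2 fold change of -0.30 ± 0.04 (SE), with an adjusted p of 2.59e-05 by edgeR's quasi-likelihood test. CYBB stayed past the test under all 14 alternatives tried, with log2 fold changes between -0.35 and -0.26.

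CYBA (ENSG00000051523, chromosome 16, 88643283 to 88651152, minus strand) encodes p22phox, which stabilises gp91phox and docks the organiser subunit. Its level was 313 and 287 CPM in PIG-LONA, against 320 and 316 CPM in PIG-EMPTY. The groups did not overlap, but PIG-LONA replicate 1 stood close to the PIG-EMPTY libraries and the difference did not pass (log2 fold change -0.09 ± 0.04, edgeR adjusted p = 0.254). Without PIG-LONA replicate 1 the log2 fold change was -0.15 and passed (edgeR adjusted p = 1.87e-05), and without PIG-LONA replicate 2 it was -0.02 (edgeR adjusted p = 0.773). In the fit without PIG-LONA replicate 1 the single PIG-LONA library is assumed to vary as the PIG-EMPTY libraries do. The ratio of CYBB to CYBA per kilobase of exon was 1.14 and 1.33 in PIG-LONA, against 1.41 and 1.46 in PIG-EMPTY. It averaged 1.24 ± 0.13 in PIG-LONA and 1.43 ± 0.04 in PIG-EMPTY (SD, n = 2 each, two-sided exact permutation p = 0.333, the smallest p that 2 against 2 libraries allow). Whether CYBB stands above CYBA rests on the length used, here the union of all annotated exons. With the longest coding transcript as length, CYBB stood below CYBA in both groups.

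**Figure D1:**
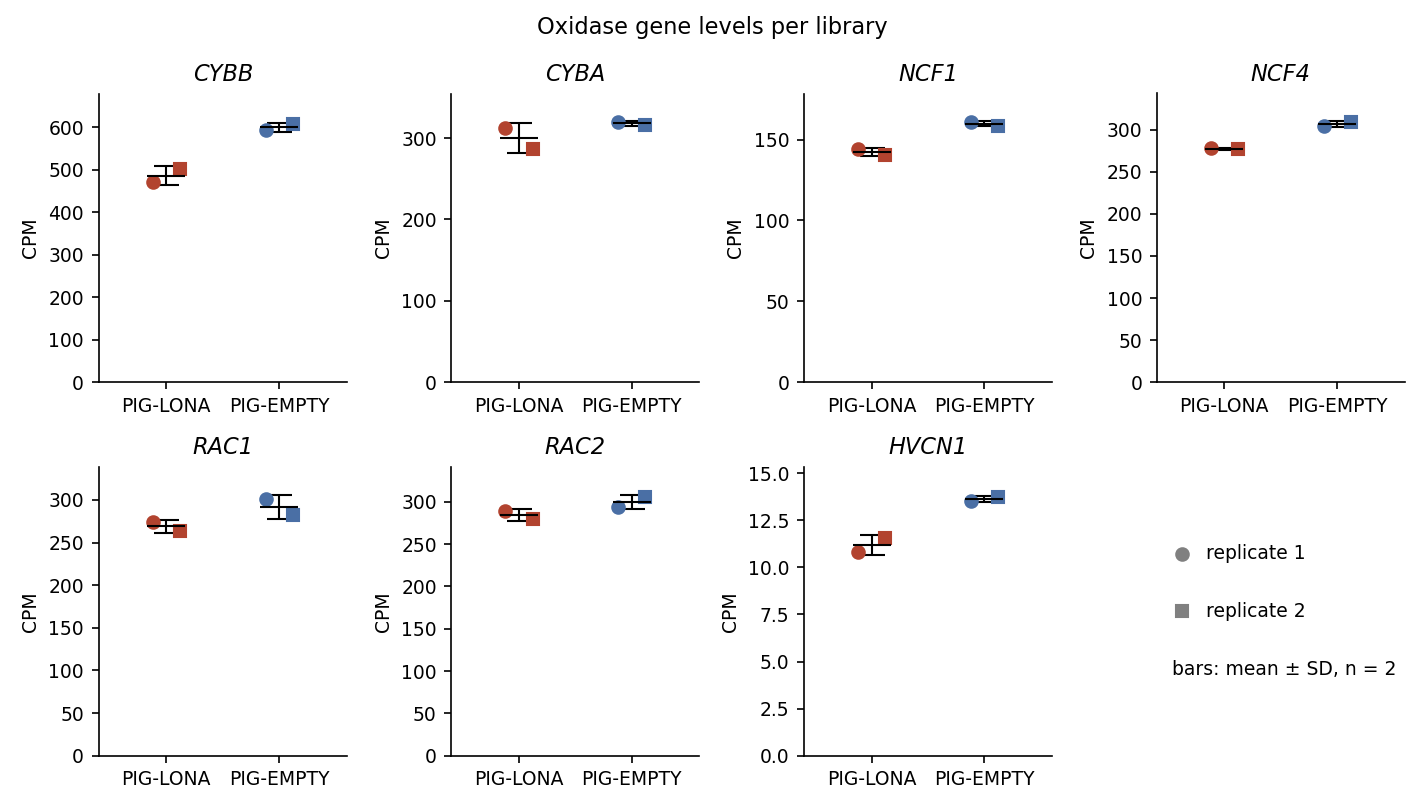
Level of each oxidase gene in CPM per library, with PIG-LONA on the left and PIG-EMPTY on the right of each panel; circles are replicate 1, squares replicate 2, and bars the mean ± SD of 2 libraries. CYBB has the clearest gap, at 471 and 502 CPM in PIG-LONA against 593 and 608 CPM in PIG-EMPTY, while the nearest points of the groups almost meet in CYBA and RAC2.

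The promoter windows of CYBB, NCF1 and CYBA are shown to place, or to show as missing, the letters that the myeloid factor PU.1 is known to bind. Each window runs from 250 bases before to 50 bases after the RefSeq start, on the gene's own strand (GRCh38.p14). The windows are chrX:37779809-37780108 (plus strand) for CYBB, chr7:74773761-74774060 (plus strand) for NCF1 and chr16:88651004-88651303 (minus strand) for CYBA, and 3 of the 7 genes had an entry. Capitals mark matches on either strand to GAGGAA (the PU.1 core), GGAA followed after any 2 bases by GAAA (a composite element that ETS and IRF factors bind together) and CCAAT.
CYBB: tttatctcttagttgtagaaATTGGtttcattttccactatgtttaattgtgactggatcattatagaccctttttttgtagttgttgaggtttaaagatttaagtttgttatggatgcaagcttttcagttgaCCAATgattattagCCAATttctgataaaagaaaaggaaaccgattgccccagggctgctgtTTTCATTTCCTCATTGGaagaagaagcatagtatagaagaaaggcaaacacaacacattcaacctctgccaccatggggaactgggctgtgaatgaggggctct
NCF1: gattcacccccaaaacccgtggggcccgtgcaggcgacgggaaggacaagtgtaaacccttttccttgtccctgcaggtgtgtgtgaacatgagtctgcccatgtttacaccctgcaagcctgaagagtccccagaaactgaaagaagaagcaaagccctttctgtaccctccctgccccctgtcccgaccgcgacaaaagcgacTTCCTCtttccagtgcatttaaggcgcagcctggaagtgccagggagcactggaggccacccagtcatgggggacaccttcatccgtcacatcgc
CYBA: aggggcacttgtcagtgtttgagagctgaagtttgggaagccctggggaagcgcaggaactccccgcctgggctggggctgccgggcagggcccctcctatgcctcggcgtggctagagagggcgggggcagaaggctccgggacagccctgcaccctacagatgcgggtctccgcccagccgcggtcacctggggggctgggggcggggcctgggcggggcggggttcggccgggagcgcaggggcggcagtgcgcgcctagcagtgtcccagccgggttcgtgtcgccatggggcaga
In CYBB the composite element began 54 bases before the start (at -54), overlapped a PU.1 core that began at -48, and was followed by a CCAAT match at -42, all on the opposite strand. In NCF1 a PU.1 core began at -45 on the opposite strand, and CYBA held no match to the 3 motifs. Of 35116 promoter windows of this length, 27.85% held GAGGAA, 2.82% the composite element and 34.61% CCAAT. The windows also differed in base composition, at 37.7% G and C in CYBB, 57.3% in NCF1 and 72.7% in CYBA. A match in these letters is a description and does not show that a factor binds.

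NCF1 (ENSG00000158517, chromosome 7, 74773962 to 74789315, plus strand) encodes p47phox, which leads the cytosolic subunits to the membrane once it is phosphorylated. Its level was 144 and 141 CPM in PIG-LONA, against 161 and 159 CPM in PIG-EMPTY. The libraries of a group lay within a few CPM of each other and the groups were well apart (log2 fold change -0.17 ± 0.04, edgeR adjusted p = 0.00976). NCF4 (ENSG00000100365, chromosome 22, 36860988 to 36878015, plus strand) encodes p40phox, which binds phosphatidylinositol 3-phosphate on the phagosome. It had 278 and 277 CPM in PIG-LONA, against 304 and 309 CPM in PIG-EMPTY, again with little spread inside the groups (log2 fold change -0.14 ± 0.04, edgeR adjusted p = 0.0138).

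The calls of NCF1 and NCF4 rested on both PIG-EMPTY libraries and on the filter for low counts. Without PIG-EMPTY replicate 1 the adjusted p (edgeR) was 0.197 for NCF1 and 0.167 for NCF4, and without PIG-EMPTY replicate 2 it was 0.145 and 0.365, with log2 fold changes between -0.18 and -0.13. Without the filter the adjusted p (edgeR) was 0.0740 for NCF1 and 0.0749 for NCF4. NCF4 overlaps the antisense gene NCF4-AS1 in its exons, but that gene had at most 6 counts in a library.

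NCF1 has a pair of closely similar pseudogenes on the same chromosome, NCF1B (73220624 to 73235945, plus strand) and NCF1C (75156639 to 75172044, minus strand). They are known for lacking a GT in the second exon, where the functional gene has GTGT, and the site is shown because it is the letters that separate them. The lines give the GENCODE 29 models across the junction of exons 1 and 2, with the GT units in capitals. In the genome they span chr7:74774084-74777290 for NCF1, chr7:73220698-73223899 for NCF1B and chr7:75168689-75171891 for NCF1C.
NCF1-201: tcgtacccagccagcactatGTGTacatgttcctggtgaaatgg
NCF1B-201: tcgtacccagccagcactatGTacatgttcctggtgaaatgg
NCF1C-201: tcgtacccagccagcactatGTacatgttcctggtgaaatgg
Of 3 NCF1B models, 1 (NCF1B-203) reads GTGT at this place. Model NCF1C-201 aligned to 99.9% of NCF1-201 and was identical at 99.43% of the aligned bases, and NCF1B-201 aligned to 92.1% and was identical at 88.8%. Of all stretches of 50 bases in the NCF1 models, 42.05% occurred unchanged in NCF1B or NCF1C, and of stretches of 100 bases 30.61%.

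The authors' counting gave reads to all 3 loci. NCF1 held 47.17% and 46.68% of their joint counts in PIG-LONA, against 47.14% and 46.95% in PIG-EMPTY, so the split hardly moved between groups. NCF1C was at 88.1 and 88.3 CPM in PIG-LONA, against 103 and 99.8 CPM in PIG-EMPTY, and it passed (log2 fold change -0.20 ± 0.04, edgeR adjusted p = 0.00525). NCF1B was at 73.2 and 72.3 CPM in PIG-LONA, against 77.8 and 79.5 CPM in PIG-EMPTY, and it did not pass (-0.11 ± 0.04, edgeR adjusted p = 0.151). With the counts of the 3 loci summed, the log2 fold change was -0.16 (edgeR adjusted p = 0.00550). Which locus a shared read came from cannot be told from counts, so the level of NCF1 alone is uncertain.

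RAC1 (ENSG00000136238, chromosome 7, 6374523 to 6403977, plus strand) and RAC2 (ENSG00000128340, chromosome 22, 37225261 to 37244448, minus strand) encode the GTPases that activate the assembled oxidase. RAC2 is the form of blood cells, and RAC1 is made in nearly all cells. RAC1 was at 274 and 263 CPM in PIG-LONA, against 302 and 282 CPM in PIG-EMPTY. The gap between the nearest libraries of the groups was smaller than the spread inside PIG-EMPTY, and RAC1 did not pass (log2 fold change -0.12 ± 0.04, edgeR adjusted p = 0.0838). RAC2 was at 290 and 279 CPM in PIG-LONA, against 294 and 306 CPM in PIG-EMPTY. Its groups nearly touched, and it did not pass either (-0.08 ± 0.04, edgeR adjusted p = 0.278).

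The groups overlapped in the ratio of RAC2 to RAC1 per kilobase, which was 1.299 and 1.303 in PIG-LONA, against 1.197 and 1.334 in PIG-EMPTY. RAC1 passed with upper-quartile scaling (edgeR adjusted p = 0.0423), and without PIG-LONA replicate 1 both passed (edgeR adjusted p = 4.38e-05 for RAC1 and 0.00765 for RAC2). The log2 fold change of RAC1 was -0.07 without PIG-EMPTY replicate 1 (edgeR adjusted p = 0.756). That of RAC2 ranged from -0.10 to -0.04 over the alternatives, and it was smallest in size with PIG-LONA replicate 2 or PIG-EMPTY replicate 2 left out. The coding sequences of models RAC1-201 and RAC2-201 are 576 bases long each and identical at 77.1% of positions, with a longest identical run of 32 bases. No stretch of 50 bases was shared between RAC1, RAC2 and RAC3. RAC1 shared 12.35% of its stretches of 50 bases with the pseudogenes RAC1P2, RAC1P4 and RAC1P5, of which RAC1P2 had 576 and 705 counts in PIG-LONA and 614 and 597 counts in PIG-EMPTY.

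HVCN1 (ENSG00000122986, chromosome 12, 110627841 to 110704950, minus strand) was the least abundant of the 7 genes. It had 324 and 445 counts in PIG-LONA and 402 and 446 counts in PIG-EMPTY, which came to 10.8 and 11.6 CPM in PIG-LONA and 13.5 and 13.7 CPM in PIG-EMPTY. The size of its difference was close to that of CYBB, but with fewer reads its error was larger and it did not pass (log2 fold change -0.28 ± 0.09, edgeR adjusted p = 0.0595). It passed with upper-quartile scaling (edgeR adjusted p = 0.0406) and without PIG-LONA replicate 2 (edgeR adjusted p = 0.0361). HVCN1 overlaps exons of TCTN1 on the opposite strand and shares 14.92% of its stretches of 50 bases with other genes. TCTN1 had 591 and 779 counts in PIG-LONA and 685 and 720 counts in PIG-EMPTY, a difference below the threshold (-0.17 ± 0.07, edgeR adjusted p = 0.150). The strand setting of the counting is not given in the sources used here, so the values of HVCN1 and TCTN1 are uncertain where they overlap.

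Against the whole table, 3 of 7 oxidase genes were called lower, where 3.51% of the 15918 tested genes were called lower and 2.93% higher. In all 7 both PIG-LONA libraries lay below both PIG-EMPTY libraries, which held for 24.4% of tested genes, and 48.0% did not overlap in either direction. The median log2 fold change was -0.14 over the 7 genes and 0.00 over all tested genes. The 7 genes were chosen with earlier results of these data known, so setting them beside all tested genes is a description and not a test. Among the 1861 tested genes averaging 4000 counts or more per library, a limit chosen after the values were seen, 3.92% were called lower. The summed level of the 7 genes was 1780 and 1760 CPM in PIG-LONA, against 1986 and 1993 CPM in PIG-EMPTY. In bulk RNA, fewer cells with high oxidase expression and less RNA per cell cannot be told apart. Myeloid markers moved in both directions beside them, with a median log2 fold change of -0.09 over 10 genes, of which 4 fell, 2 rose and 4 did not pass, against the same shares of all tested genes (3.51% lower, 2.93% higher). The monocyte and macrophage receptor gene CSF1R (-0.92 ± 0.15), lysozyme (LYZ, -0.70 ± 0.12), the aminopeptidase ANPEP (-0.57 ± 0.06) and SPI1 fell. The granule protein genes PRTN3 (0.25 ± 0.04) and AZU1 (0.15 ± 0.04), which are used early in granulocyte maturation, rose. The granule protein genes ELANE (0.05 ± 0.04, edgeR adjusted p = 0.453) and MPO (-0.11 ± 0.19, edgeR adjusted p = 0.825) did not pass. Neither did CSF3R (-0.07 ± 0.04, edgeR adjusted p = 0.326) and CD33 (-0.05 ± 0.04, edgeR adjusted p = 0.626). Among 5 tested markers of other cell types, PECAM1 fell (-0.31 ± 0.06, edgeR adjusted p = 0.00190). The part of these markers in the oxidase values was not tested.

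**Figure D2:**
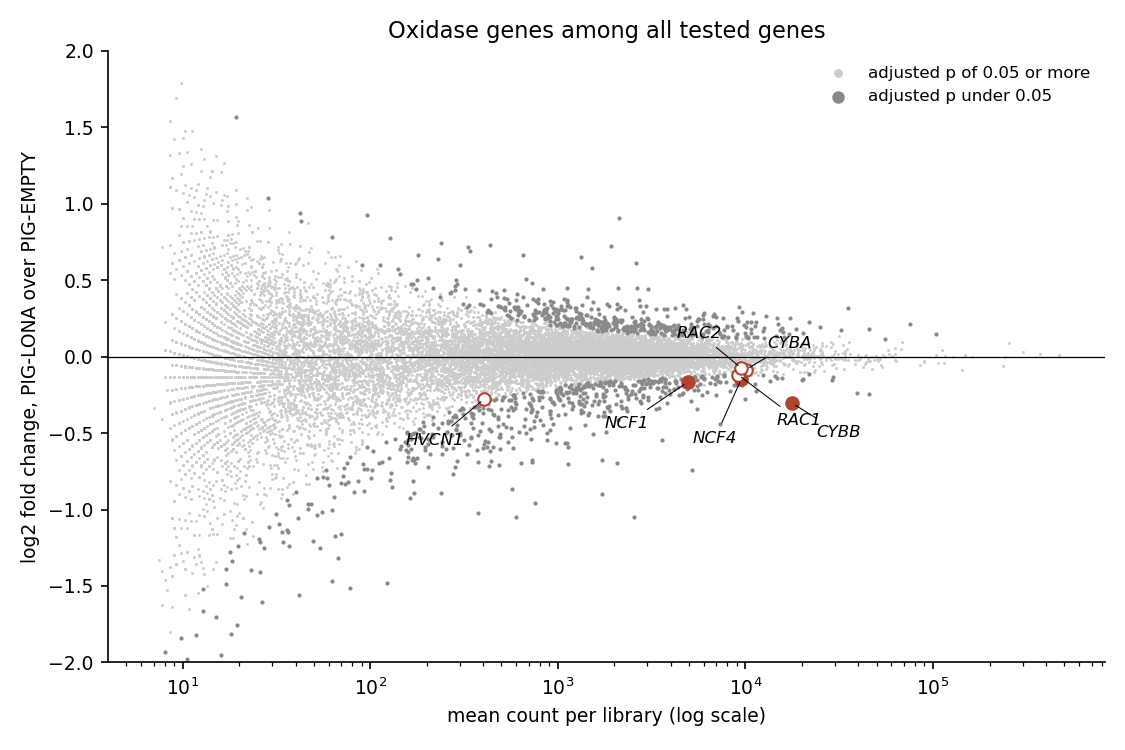
Log2 fold change of PIG-LONA over PIG-EMPTY against the mean count per library (log scale) for all tested genes, with the oxidase genes as red circles, filled where the edgeR adjusted p is under 0.05. All 7 circles lie below 0 and CYBB, the most abundant, lies lowest, and 19 genes beyond ±2 on the vertical axis are not drawn.

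Per kilobase of exon, with the union of all annotated exons as length, NCF4 was the highest of the 7 at 158 ± 0.44 CPM per kilobase in PIG-LONA and 174 ± 2.08 in PIG-EMPTY (SD, n = 2 each). RAC2 (112 ± 2.92) and CYBB (110 ± 5.04) did not differ beyond their spread in PIG-LONA, and neither did CYBA (89.3 ± 5.51) and RAC1 (86.3 ± 2.43). In PIG-EMPTY the order below NCF4 was CYBB (136 ± 2.32), RAC2 (118 ± 3.48), CYBA (94.7 ± 0.78) and RAC1 (93.7 ± 4.44), the last pair again within its spread. NCF1 stood at 41.1 ± 0.70 in PIG-LONA and 46.1 ± 0.44 in PIG-EMPTY, and HVCN1 at 3.04 ± 0.14 in PIG-LONA and 3.69 ± 0.04 in PIG-EMPTY. The order rests on the length used. With the longest coding transcript instead, a choice added after seeing the data, CYBA led at 212 ± 13.1 in PIG-LONA and 225 ± 1.85 in PIG-EMPTY, and CYBB was at 112 ± 5.16 in PIG-LONA and 139 ± 2.38 in PIG-EMPTY.

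The other NADPH oxidases were hardly counted. Of the 10 genes listed (NOX1, NOX3, NOX4, NOX5, DUOX1, DUOX2 and their partners DUOXA1, DUOXA2, NOXA1 and NOXO1), 0 had enough reads for the test. The 6 catalytic genes had at most 2 counts summed over the 4 libraries, and NOX1 and NOX4 had 0. A count of 0 allows up to 3 counts, which is 0.0782 to 0.0994 CPM of the unscaled total in the PIG-LONA libraries and 0.0927 to 0.101 CPM in the PIG-EMPTY libraries. CYBB was the 1 catalytic NOX gene of those looked at with more than a few counts.

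Most genes that build and switch on the oxidase did not pass the test. Of 29 assembly and activation genes tested, 2 fell, 1 rose and 26 did not pass, with a median log2 fold change of -0.01. Over all tested genes 3.51% were called lower and 2.93% higher.

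S100A9 and S100A8, calcium-binding proteins of phagocytes that deliver arachidonic acid to the oxidase, fell, with log2 fold changes of larger size than those of the 7 genes. S100A9 was at 41.2 and 40.5 CPM in PIG-LONA, against 62.6 and 67.5 CPM in PIG-EMPTY (log2 fold change -0.67 ± 0.05, edgeR adjusted p = 5.00e-08), and S100A8 at 16.2 and 13.99 CPM in PIG-LONA, against 24.7 and 23.9 CPM in PIG-EMPTY (-0.70 ± 0.08, edgeR adjusted p = 8.16e-06). MAPK14, the p38 kinase that phosphorylates p47phox, rose (0.15 ± 0.04, edgeR adjusted p = 0.0255). It lies on chromosome 6, whose 799 tested genes had a median log2 fold change of 0.17. The part of the chromosome in the MAPK14 value was not tested. The MAPK14 call was lost without PIG-EMPTY replicate 1 (edgeR adjusted p = 0.0759) or PIG-EMPTY replicate 2 (edgeR adjusted p = 0.528), without the filter (edgeR adjusted p = 0.102) and in DESeq2 (adjusted p = 0.0764). CYBC1, a chaperone of the CYBB and CYBA pair, was at 178 and 173 CPM in PIG-LONA, against 179 and 180 CPM in PIG-EMPTY, a difference short of the threshold (-0.04 ± 0.04, edgeR adjusted p = 0.689). It is named beyond the rule, after its values were seen, because of that role, and so are PRKCD and PRKCB, kinases of p47phox, at -0.07 ± 0.04 and -0.06 ± 0.04, which did not pass (edgeR adjusted p = 0.316 and 0.394).

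Of 37 tested regulators and effectors of RAC, 2 fell, 3 rose and 32 did not pass, beside 3.51% of all tested genes called lower and 2.93% higher, and the median log2 fold change was -0.03. Both that fell are exchange factors that load RAC with GTP. PREX1, a main activator of RAC2 in neutrophils, was at 129 and 136 CPM in PIG-LONA, against 148 and 154 CPM in PIG-EMPTY (-0.19 ± 0.04, edgeR adjusted p = 0.00607), and VAV1 was at -0.14 ± 0.04 (edgeR adjusted p = 0.0437). The 3 that rose act downstream of RAC, on actin. CYFIP1 was at 108 and 109 CPM in PIG-LONA, against 93.1 and 95.8 CPM in PIG-EMPTY (0.20 ± 0.04, edgeR adjusted p = 0.00510), WASF1 on chromosome 6 was at 0.22 ± 0.05 and the kinase gene PAK1 at 0.20 ± 0.06. Leaving out PIG-EMPTY replicate 2 ended all 5 calls, leaving out PIG-EMPTY replicate 1 ended all but that of PREX1, and with PIG-LONA replicate 1 left out the list had 11 calls. The PAK1 call also ended with PIG-LONA replicate 2 left out (edgeR adjusted p = 0.104) and with library totals (edgeR adjusted p = 0.0555), and the VAV1 call without chromosome 6 genes (edgeR adjusted p = 0.0668). Without the filter CYFIP1 alone of the 5 stayed past the threshold, with adjusted p (edgeR) of 0.0678 to 0.206 for the others, and in DESeq2 WASF1, PAK1 and VAV1 were lost (adjusted p = 0.0893, 0.231 and 0.172).

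Transcription factors tied to the oxidase genes gave 4 falls and 19 genes that did not pass, with a median of -0.03, where 3.51% of all tested genes were called lower. SPI1, which encodes PU.1, was at 210 and 202 CPM in PIG-LONA, against 224 and 228 CPM in PIG-EMPTY (-0.13 ± 0.04, edgeR adjusted p = 0.0346). CEBPB (-0.39 ± 0.08), FOS (-0.38 ± 0.06) and CEBPD (-0.25 ± 0.05) fell as well. The size of the CEBPB change rested on single libraries, at -0.57 with PIG-LONA replicate 1 left out and -0.21 with PIG-LONA replicate 2 left out. IRF8, a partner of PU.1 on CYBB named after its values were seen, was at 813 and 803 CPM in PIG-LONA, against 765 and 753 CPM in PIG-EMPTY, which was short of the threshold (0.09 ± 0.03, edgeR adjusted p = 0.118). The SPI1 call was lost without either PIG-EMPTY library (edgeR adjusted p = 0.220 without replicate 1 and 0.461 without replicate 2), without chromosome 6 genes (edgeR adjusted p = 0.0549) and in DESeq2 (adjusted p = 0.0992). That of CEBPD ended with PIG-EMPTY replicate 1 left out (edgeR adjusted p = 0.0753), and that of CEBPB in DESeq2 (adjusted p = 0.393). Without the filter the calls of SPI1, CEBPB and CEBPD all ended (edgeR adjusted p = 0.158, 0.123 and 0.0756), and that of FOS held in every alternative at a threshold of 0.05. Without PIG-EMPTY replicate 1 the list had 2 calls, and without PIG-LONA replicate 1 it had 10, of which 5 were higher.

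Enzymes that remove superoxide and peroxide or supply NADPH gave 5 falls and 1 rise among 37 tested, with 31 that did not pass and a median of -0.01. The shares over all tested genes were 3.51% lower and 2.93% higher. SLC7A11, the cystine importer that feeds glutathione synthesis, was at 21.7 and 22.2 CPM in PIG-LONA, against 32.8 and 31.4 CPM in PIG-EMPTY (-0.55 ± 0.06, edgeR adjusted p = 1.12e-05). GPX1, a glutathione peroxidase, was at 177 and 175 CPM in PIG-LONA, against 208 and 206 CPM in PIG-EMPTY (-0.23 ± 0.04, edgeR adjusted p = 0.000386). The quinone reductase gene NQO1 (-0.38 ± 0.05), the NADPH-producing IDH1 (-0.15 ± 0.04) and the haem oxygenase HMOX1 (-0.56 ± 0.17) fell too. SOD2, the mitochondrial superoxide dismutase on chromosome 6, rose (0.22 ± 0.05). Calls were lost for IDH1, SOD2 and HMOX1 without PIG-EMPTY replicate 2 (edgeR adjusted p = 0.454, 0.173 and 0.466), for IDH1 and SOD2 also without PIG-EMPTY replicate 1 (edgeR adjusted p = 0.0731 and 0.0580), for HMOX1 with PIG-LONA replicate 1 left out (edgeR adjusted p = 0.0899), and for SOD2 with PIG-LONA replicate 2 left out (edgeR adjusted p = 0.0505). Without the filter all 3 were lost (edgeR adjusted p = 0.0870 for IDH1, 0.0852 for SOD2 and 0.194 for HMOX1), and in DESeq2 SOD2 and HMOX1 were (adjusted p = 0.0799 and 0.262). HMOX1 was also lost with library totals (edgeR adjusted p = 0.0604), with limma-voom (adjusted p = 0.0550) and without chromosome 6 genes (edgeR adjusted p = 0.0676). The list had 3 calls without PIG-EMPTY replicate 2, 9 when PIG-LONA replicate 1 was left out and 10 when PIG-LONA replicate 2 was.

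**Figure D3:**
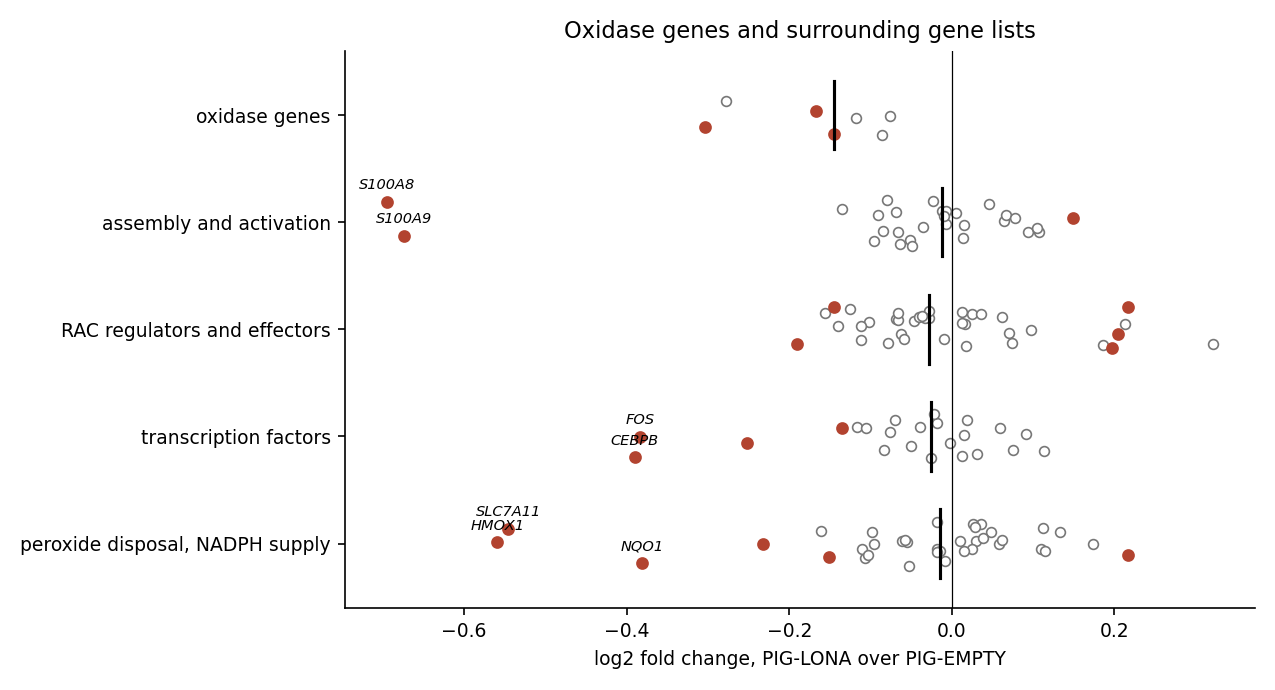
Log2 fold change of PIG-LONA over PIG-EMPTY for each tested gene of the oxidase group and of 4 surrounding lists, with filled circles for an edgeR adjusted p under 0.05, black lines for medians and vertical scatter added for legibility. The median of the 7 oxidase genes is -0.14, and the medians of the other lists lie between -0.03 and -0.01, with S100A8 and S100A9 far to the left.

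Among 11291 tested genes averaging 100 counts or more, the 5 whose levels over the 4 libraries were most like those of CYBB were LAMB3, HVCN1, GNG12, BAIAP2-DT and SPATS2L, in this order. Likeness was the Euclidean distance between log2 CPM deviations from each gene's mean, and it was 0.02 for LAMB3, 0.02 for HVCN1 and 0.03 for the others. The second place of HVCN1, a gene of the group itself, is a description over 4 libraries, in which every gene shares the same depths and the same split into groups. LAMB3, a laminin subunit gene, was at 18.7 and 20.03 CPM in PIG-LONA, against 23.5 and 24.6 CPM in PIG-EMPTY (-0.31 ± 0.07, edgeR adjusted p = 0.00717), and its call ended with PIG-EMPTY replicate 2 left out (edgeR adjusted p = 0.105), without the filter (edgeR adjusted p = 0.0749) and in DESeq2 (adjusted p = 0.0664). In CYBB, HVCN1 and LAMB3 alike, PIG-LONA replicate 1 was the lowest library and PIG-EMPTY replicate 2 the highest. HVCN1 and LAMB3 are named here for their likeness to CYBB, so a shared order follows from that choice.

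Of 25 tested neighbours within 100 kb of the 7 genes, 4 passed (16%, against 6.44% of all tested genes), 2 in each direction. Near CYBB the low-count LANCL3 fell (10 and 12 counts in PIG-LONA, against 28 and 32 counts in PIG-EMPTY, -1.57 ± 0.36), and near RAC2 the exchange factor gene CYTH4 fell (-0.37 ± 0.10). PIEZO1 near CYBA (0.14 ± 0.04) and the transcribed pseudogene STAG3L2 near NCF1 (0.22 ± 0.06) rose, away from the direction of their neighbours in the oxidase group. The calls of these 4 neighbours were not tried under the alternatives.

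**Figure D4:**
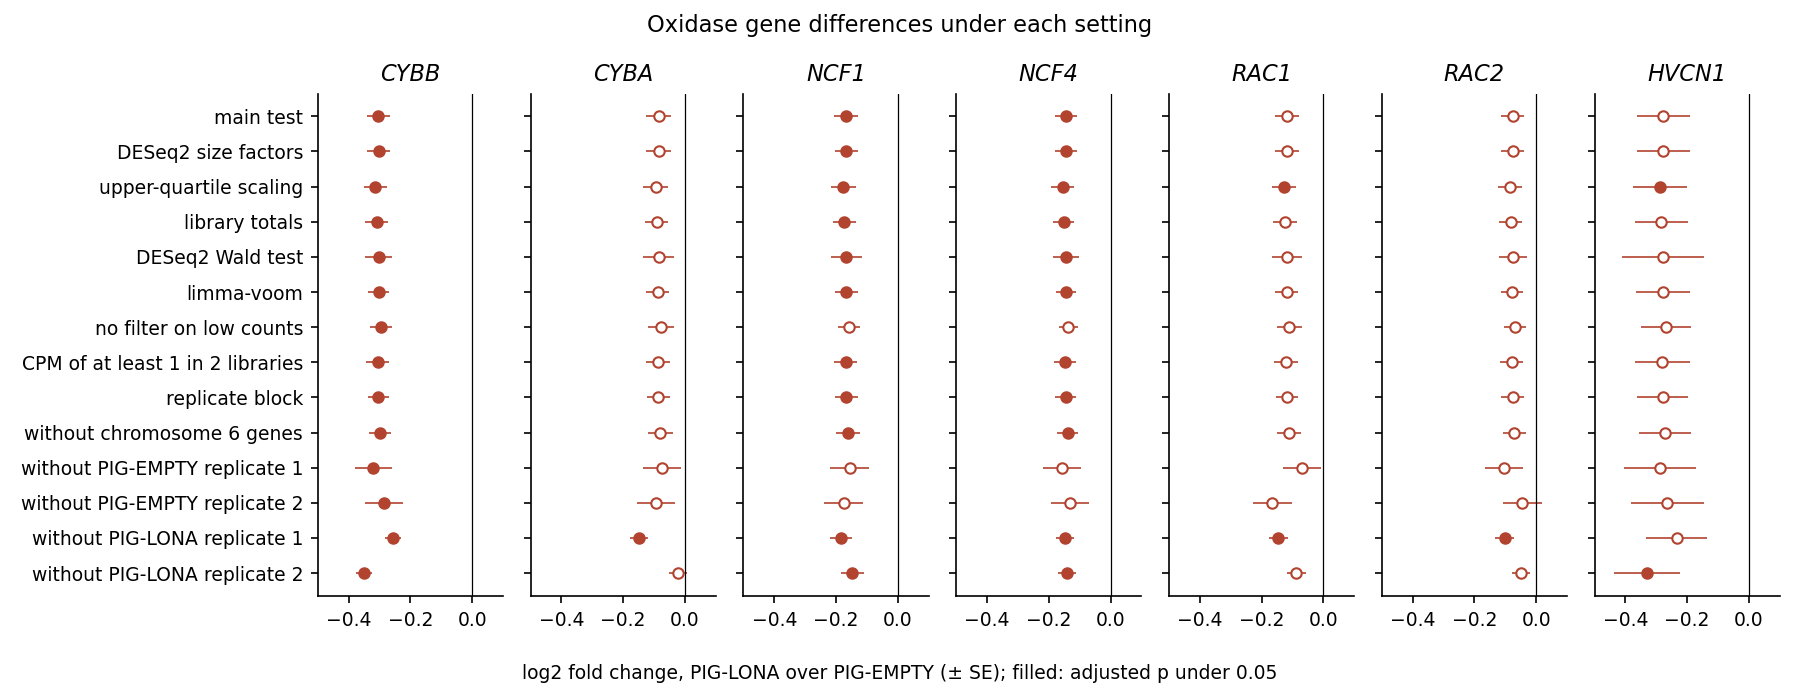
Log2 fold change (± SE) of PIG-LONA over PIG-EMPTY for each oxidase gene under the main test and 13 alternatives, filled where the adjusted p is under 0.05. The groups do not overlap in any of these genes, so leaving out a library could hardly turn the direction. Every point lies below 0, CYBB is filled throughout, NCF1 and NCF4 are open where a PIG-EMPTY library or the filter is left out, and CYBA, RAC1 and RAC2 are filled without PIG-LONA replicate 1.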

How the data were processed

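Per the labels' protocols, poly(A) RNA went into stranded libraries (NEBNext Ultra II Directional). The authors deposited raw read counts per Ensembl gene, 1 column per library. Tools named in the submitters' processing notes are STAR 2.5, HTSeq and FastQC 0.11.4, with build hg38. Neither the annotation release nor the strand setting is given in the sources used here. Symbols came from a gene name table (60357 of 67062 rows matched), SOD2 and coordinates from GENCODE 29 on GRCh38, promoters from RefSeq. Genes passing filterByExpr (minimum count 10, minimum total 15) numbered 15918, and all 7 oxidase genes passed. Groups were compared with edgeR 4.0.16 in R 4.3.3 (glmQLFit, glmQLFTest, TMM, two-sided), p-values were adjusted over the 15918 genes by Benjamini and Hochberg's method, and the threshold was 0.05. The standard error is the log2 fold change divided by the square root of F. Alternatives used DESeq2 1.42.0, limma 3.58.1 (voom), other scalings and filters, a replicate block, left-out libraries and the exclusion of chromosome 6. The chi-square per gene between libraries of a group was 4.70 in PIG-LONA and 1.82 in PIG-EMPTY, so all were kept as separate samples.

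Per list, up to 6 genes with the smallest p past the threshold were named, with the 5 genes most like CYBB and called neighbours within 100 kb. The members and lists were chosen with earlier results of these data known. No protein sequences were used here, so RAC1 and RAC2 were compared by coding bases. LONA itself is not analysed here, and some genes of the lists are not reported here.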

Additional observations from a re-analysis of the deposited data

How the results depend on the processing

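The 7 oxidase genes kept a log2 fold change below 0 in each of the 14 alternatives run for each gene, and CYBB kept its call in all 14. The groups did not overlap in any of the 7, so leaving out a library could hardly turn the direction. The threshold of 0.01 uses the same fit as the main test, so the kept direction is a description. The count of called oxidase genes was 3, against 5 with upper-quartile scaling, 1 without the filter on low counts and 1 to 6 with a library left out. The count over all genes was 1025, against 473 with DESeq2, 334 without the filter, 660 without chromosome 6 genes, 528 at adjusted p under 0.01 and 466 to 2331 with a library left out. Called assembly genes numbered 3, against 2 with DESeq2, without the filter, without chromosome 6 genes or at 0.01, and 2 to 4 with a library left out. Called RAC genes numbered 5, against 2 with DESeq2, 1 without the filter, 3 without chromosome 6 genes, 2 at 0.01 and 0 to 11 with a library left out. Called transcription factors numbered 4, against 2 with DESeq2, 1 without the filter and 3 without chromosome 6 genes or at 0.01, and the count also moved with a library left out. Called peroxide and NADPH genes numbered 6, against 3 without the filter or at 0.01, and 3 to 10 with a library left out. Leaving out chromosome 6 took away its 799 tested genes, whose median log2 fold change was 0.17. Calls of higher genes then went from 467 to 219 and calls of lower genes from 558 to 441. The cause of the change in count was not tested for any setting. Where a library is left out, the remaining library of its group is assumed to vary like the other group. Same-numbered libraries deviated together with a correlation of 0.03 and the labels do not say that a number marks a pair. With 2 libraries per group the crossed correlation, -0.03, is the same value with its sign turned, by construction. With the replicate block 1101 genes and 3 oxidase genes were called, 1022 and 3 of them also without it. Nothing in the labels separates the spread of transductions from that of library preparation, and at 2 libraries per group single-gene calls near the threshold are fragile.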
